A study of Rattus norvegicus with 20 samples.

Results

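The difference in postdose change between susceptible and resistant rats was described for blood RNA on 20 Affymetrix whole-genome rat arrays, 5 in each of 4 groups. For each probe set, which is a group of short oligonucleotides read as 1 signal, it was taken on the log2 scale as (susceptible postdose minus susceptible predose) minus (resistant postdose minus resistant predose). A positive value means that the signal moved further up, or less far down, in susceptible rats. All 20 arrays of the series entered it, and 15257 of 31042 probe sets (49.1%) were kept because their mean signal over the 20 arrays reached the array median, which had been set to 1000 on each array. The lowest mean log2 signal kept and the highest left out were both 9.966. Of the kept probe sets, 11822 carry 1 gene symbol, 313 several and 3122 none.

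The rats were male outbred Wistar rats that had been ranked by serum alanine aminotransferase, an enzyme that leaks from injured liver cells, on the day after 1 oral dose of acetaminophen (APAP). The 5 rats of the highest and the 5 of the lowest rank formed the susceptible and the resistant sub-group. Below, R and RA are the resistant predose and postdose arrays, and S and SA the susceptible predose and postdose arrays; R and S blood was drawn before any APAP, and RA and SA blood after the same dose in both sub-groups. Values of a group are given in the order of replicates 1 to 5. The arrays carried the RNA of blood cells, with mean log2 signals of 18.65 for the neutrophil gene S100a9, 18.85 for the platelet gene Pf4 and 17.32 for the T cell gene Tcf7, while 2 of 20 liver genes on the array passed the signal rule. Over the kept probe sets, R replicate 5 stood apart from the other R arrays, with a mean correlation of 0.9713 with them against 0.9794 to 0.9815 for the others, a gap above Dixon's limit, and no array of another group did. Predose blood was drawn a week before dosing, and red cells were lysed before RNA extraction. The sub-groups are extremes of 1 outbred population and not strains, their ages are not given in the sources used here, and vehicle-treated rats were not measured on arrays. The rats were fasted before the dose, and the sources differ on the site of the postdose draw, which was the retro-orbital plexus in the labels and the inferior vena cava in the methods. What APAP, fasting, the draw and the day contributed to a postdose change cannot be told apart. These steps were common to both sub-groups, and whether their effect differed between the sub-groups was not tested. By the methods, predose and postdose blood came from the same rats, but the labels do not say that equal replicate numbers are the same rat. The arrays were therefore treated as separate samples. A p-value measures the spread between arrays and leaves the repeated draw from each rat out of account.

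Interferons are secreted signals of antiviral and inflammatory defence. Type I interferons act through a complex that holds STAT2 and IRF9 and binds interferon-stimulated response elements (ISREs), and interferon-gamma acts through gamma-activated sites (GASs) and through induced IRF1. White blood cells carry receptors for both and also respond to molecules released from dying tissue, for example through Toll-like receptors, with cytokines, chemokines and prostaglandin synthesis.

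Of the 19 named genes called as larger in susceptible rats below, 17 have a promoter window in the RefSeq table of the GRCr8 assembly, which spans 250 bases before and 50 after the gene's start. Windows of 5 of them are printed because they hold the letters of one or both elements; capitals mark each match, on either strand, to the ISRE core, which was searched as GAAA, any 2 bases and GAAA again, or to the GAS, searched as TTCNNNGAA. Their positions are chr2:234005477-234005776 on the plus strand for Gbp2, chr14:15988816-15989115 plus for Cxcl10, chr10:42889720-42890019 plus for Irgm2, chr10:33742529-33742828 minus for Irgm and chr10:38417685-38417984 plus for Irf1.
Gbp2: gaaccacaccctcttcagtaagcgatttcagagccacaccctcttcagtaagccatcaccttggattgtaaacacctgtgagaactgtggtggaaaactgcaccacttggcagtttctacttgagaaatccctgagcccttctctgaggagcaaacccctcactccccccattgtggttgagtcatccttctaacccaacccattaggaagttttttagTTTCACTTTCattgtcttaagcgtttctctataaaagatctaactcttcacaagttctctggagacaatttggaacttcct
Cxcl10: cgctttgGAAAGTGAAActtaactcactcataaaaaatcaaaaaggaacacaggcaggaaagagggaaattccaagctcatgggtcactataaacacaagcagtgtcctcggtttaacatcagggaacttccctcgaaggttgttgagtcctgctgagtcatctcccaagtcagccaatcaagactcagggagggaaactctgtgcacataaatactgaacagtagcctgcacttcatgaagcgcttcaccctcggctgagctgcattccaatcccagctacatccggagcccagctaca
Irgm2: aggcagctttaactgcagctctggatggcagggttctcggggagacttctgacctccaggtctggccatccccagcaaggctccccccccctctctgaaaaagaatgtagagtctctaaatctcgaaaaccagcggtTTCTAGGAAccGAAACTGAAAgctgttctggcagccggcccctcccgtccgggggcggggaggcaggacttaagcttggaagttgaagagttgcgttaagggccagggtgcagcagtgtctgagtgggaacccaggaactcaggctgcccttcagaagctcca
Irgm: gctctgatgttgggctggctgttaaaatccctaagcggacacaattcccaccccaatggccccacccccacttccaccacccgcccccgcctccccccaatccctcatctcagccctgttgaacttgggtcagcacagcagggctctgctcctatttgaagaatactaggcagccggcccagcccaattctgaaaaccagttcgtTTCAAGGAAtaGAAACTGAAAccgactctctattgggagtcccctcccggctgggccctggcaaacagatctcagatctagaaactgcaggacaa
Irf1: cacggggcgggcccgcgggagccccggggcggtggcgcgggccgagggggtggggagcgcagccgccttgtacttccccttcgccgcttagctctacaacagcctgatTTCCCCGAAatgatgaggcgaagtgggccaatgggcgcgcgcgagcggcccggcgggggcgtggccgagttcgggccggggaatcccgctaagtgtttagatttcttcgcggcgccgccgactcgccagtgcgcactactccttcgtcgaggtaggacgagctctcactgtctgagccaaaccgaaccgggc
The ISRE core was found in 4 of the 17 windows and the GAS in 3, against 3.77% and 8.68% of all 27457 windows. In Irgm2 and Irgm, which encode paired immunity-related GTPases, the GAS and the ISRE core lie 2 bases apart. The windows of Ubd, Tlr4, Stat2 and Helz2, among others, hold neither set of letters. A match is a description of these letters in this window and not a measured binding site.

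Of the 15257 probe sets, 26 had a difference in change at a Benjamini-Hochberg adjusted p under 0.05 from limma, and these are named called below. Larger in susceptible rats were 23, which is 0.151% of those tested, and smaller were 3, which is 0.0197%. Of the 23, 5 are on the list of interferon-gamma-induced genes (Gbp2, Ubd, Irf1, Irgm and Cxcl10), 2 on that of type I interferon-stimulated genes (Stat2 and Usp18), 2 on that of endoplasmic reticulum stress (Atf3 and Sdf2l1) and 1 on that of glucocorticoid-induced genes (Sgk1). The other 9 named genes, Irgm2, Helz2, Uba7, Tlr4, Ccrl2, Anxa3, Ssr3, Enpp3 and C1h19orf12, are on none of the lists. The sizes ran from 0.92 to 4.01 on the log2 scale among the 23, and from 0.85 to 1.11 among the 3. At an unadjusted p under 0.05 there were 1430 probe sets, 969 larger (6.35%) and 461 smaller (3.02%) in susceptible rats, where an even spread of p would give 763 in all. That split depended on the scaling: with quantile normalization 841 of 1801 were larger, and with the values as deposited 760 of 1528, while the median of all differences went from 0.029 to -0.025 and -0.02. The called set remained mostly larger, with 20 of 27 and 13 of 16. Counts of list members at an unadjusted p under 0.05 are to be read beside the shares of 6.35% and 3.02%.

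The number called rested on single arrays. It was 0 without R replicate 2, S replicate 3 or S replicate 4, 2 without R replicate 3 or SA replicate 1, 3 without RA replicate 2, 5 without RA replicate 4, 7 without R replicate 4, S replicate 5, RA replicate 3 or SA replicate 3, 9 without RA replicate 5 and 14 without RA replicate 1. It was 58 without SA replicate 4, 64 without S replicate 1 and 119, with all 26 among them, without R replicate 5, the array that stood apart. Every gene named below as called kept the sign of its difference in all of these fits, and lost its call at least without R replicate 2, S replicate 3 and S replicate 4; Gbp2, with the smallest p, had an adjusted p of at most 0.0585 there. With all 31042 probe sets tested none was called, with the methods' t-test after adjustment none either, and with a filter at a mean signal of 2000, 45 of 11987.

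The difference was composed of both changes. Taken alone, the resistant change was called for 1094 probe sets as a rise (7.17%) and for 1257 as a fall (8.24%). The susceptible change was called for 1607 as a rise (10.5%) and for 1247 as a fall (8.17%). Counts of list members that rose or fell are to be read beside these shares. Called in both sub-groups were 713 probe sets that rose and 643 that fell, and the correlation of the changes over the kept probe sets was 0.651 (Pearson) and 0.6 (Spearman); the changes share no array, and probe sets are not independent replicates. Only 9 probe sets fell in resistant and rose in susceptible rats with both called, and 5 of these were among the 23; 1 went the other way. Of the 23, 22 rose in susceptible rats and 6 fell in resistant rats, where 20 of the estimates were below 0. All 23 were called higher on SA than on RA arrays, against 1.42% of probe sets called higher and 0.216% called lower there. On all 23, every SA array lay above every RA array, as it did for 2.65% of all kept probe sets (404). The 23 were chosen on the susceptible change minus the resistant change, which contains SA minus RA, on these same arrays. Their counts of susceptible rises, of resistant falls and estimates below 0, and of higher SA arrays therefore follow in part from that choice. None of these counts is separate support. Over all kept probe sets the median resistant change was -0.025. None was called before dosing, when the ranges of R and S arrays overlapped for each of the 23; no probe set at all was, by limma, and 331 had an unadjusted p under 0.05. The estimate before dosing was nonetheless below 0 for 22 of the 23 and above 0 for the 3 called as smaller, and predose values enter the difference with that sign.

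**Figure D1:**
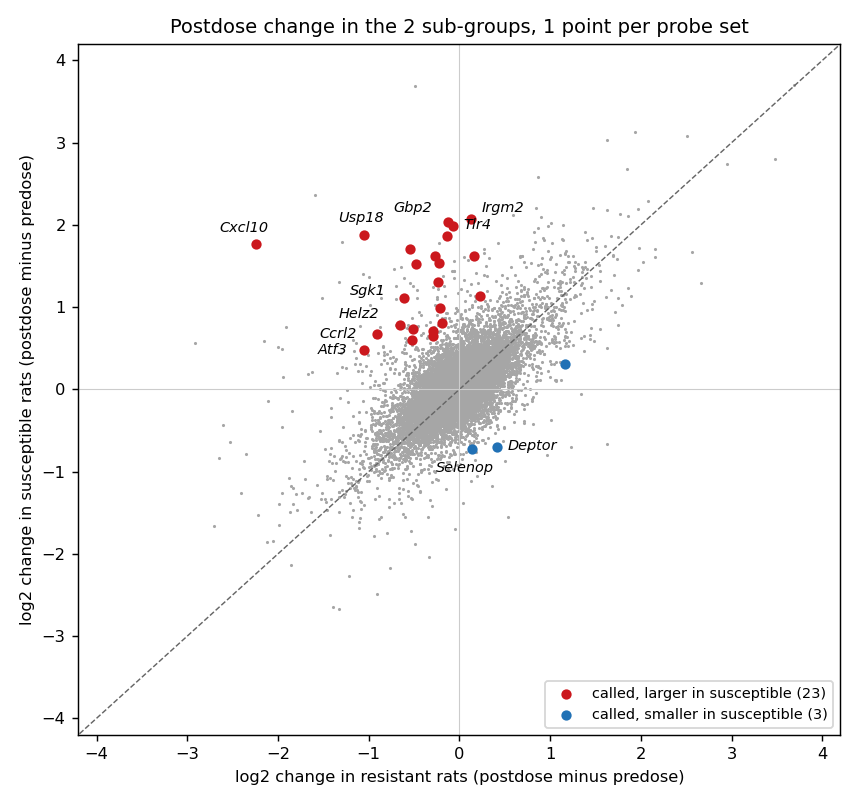
Log2 change from predose to postdose in susceptible rats (vertical axis) against that in resistant rats (horizontal axis), 1 point per kept probe set (15257). Red points are the 23 called as larger and blue points the 3 called as smaller in susceptible rats; on the dashed line both changes are equal, and Cxcl10 lies farthest above it among the called, with 1.76 in susceptible and -2.25 in resistant rats.

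Among genes induced by interferon-gamma, the signals of Gbp2, Ubd, Irf1 and Irgm rose in susceptible rats and had resistant changes between -0.3 and -0.13 that did not pass. Gbp2 encodes a guanylate-binding GTPase of cell-autonomous defence. Its log2 signals, on arrays scaled to a median of 1000, were 14.94, 15.9, 15.19, 15.41 and 14.65 on the R arrays, 14.9, 15.04, 15.55, 14.96 and 15 on the RA arrays, 15.48, 15.31, 14.75, 14.62 and 15.07 on the S arrays and 17.57, 17.1, 17.56, 16.67 and 16.47 on the SA arrays. Every SA array lay above all 15 others, and RA replicate 3 stood above the other RA arrays. The change was 2.03 in susceptible (adjusted p = 6.71e-06) and -0.13 in resistant rats, with a difference of 2.16 (SE 0.34, adjusted p = 0.0224), which is 4.47-fold. This call remained without each of 17 of the 20 arrays.

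Ubd encodes FAT10, a ubiquitin-like protein. It stood at 10.46, 10.78, 10.74, 10.99 and 10.93 on the R arrays, 10.69, 10.33, 10.45, 10.64 and 10.67 on the RA arrays, 10.66, 10.6, 10.64, 10.51 and 10.89 on the S arrays and 13.25, 12.19, 12.24, 11.79 and 11.54 on the SA arrays. The SA arrays were again above all others, and the other 3 groups overlapped. The difference was 1.77 (SE 0.3, adjusted p = 0.0224). Irf1, the transcription factor that carries interferon-gamma signals to ISREs, had signals of 15.13, 15.67, 15.59, 15.77 and 15.71 on the R arrays, 15.18, 15.18, 15.44, 15.27 and 15.32 on the RA arrays, 15.61, 15.65, 15.46, 15.47 and 15.18 on the S arrays and 16.39, 16, 16.36, 16.2 and 15.99 on the SA arrays. Its SA arrays were the highest of all 20, R replicate 1 was the lowest, and the difference of 1.01 (SE 0.18, adjusted p = 0.0285) was the smallest in size of this group.

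Irgm2 was at 14.23, 15.33, 14.46, 14.68 and 14.19 on the R arrays, 14.76, 14.64, 15.26, 14.42 and 14.43 on the RA arrays, 15.25, 14.51, 13.87, 13.67 and 14.12 on the S arrays and 16.57, 16.27, 16.8, 16.17 and 15.98 on the SA arrays. All SA arrays exceeded the other 15 and the difference was 1.95 (SE 0.37, adjusted p = 0.0304). Irgm, of the same GTPase family, had a difference of 1.89 (SE 0.37, adjusted p = 0.0396), from changes of 1.62 in susceptible and -0.27 in resistant rats. Guanylate-binding proteins and these GTPases are multigene families, and signal from related transcripts on 1 probe set was not tested.

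Cxcl10, a chemokine that draws T cells and natural killer cells, had the largest difference of the called genes, 4.01 (SE 0.82, adjusted p = 0.0499), which is 16.1-fold. Its signals were 10.73, 13.47, 12.45, 12.83 and 10.57 on the R arrays, 10.12, 9.74, 10.73, 9.46 and 8.77 on the RA arrays, 13.49, 11.94, 11.41, 10.12 and 11.58 on the S arrays and 13.9, 13.52, 14.62, 12.72 and 12.6 on the SA arrays. The R arrays ran from 10.57 to 13.47 and the S arrays from 10.12 to 13.49, and the SA arrays did not overlap the RA arrays but overlapped both predose groups. It fell in resistant rats by 2.25 (adjusted p = 0.011) and rose in susceptible rats by 1.76 (adjusted p = 0.0381). The call remained without each of 5 of the 20 arrays.

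Of the interferon-gamma list as a whole, 10 of 17 genes were measured. Of these, 7 had an unadjusted p under 0.05 as larger in susceptible rats, against 6.35% of all kept probe sets. The median difference was 1.5 against 0.029 over all kept probe sets. Called were 5 of the 7, and Igtp (1.57) and Gbp4 (1.43) were not. Ciita (-0.36), the activator of MHC class II genes, and Irf8 (-0.36), a factor of monocyte development, were the 2 members with estimates below 0 and did not pass. The mean of the list per array was 13.2, 13.92, 13.52, 13.68 and 12.89 on R, 13.17, 13.04, 13.42, 12.85 and 12.86 on RA, 13.74, 13.56, 13.02, 12.94 and 13.43 on S and 14.67, 14.19, 14.69, 14.16 and 14.03 on SA arrays. Each SA array was above each of the others.

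Type I interferon-stimulated genes had a larger change in susceptible rats for most members, though few passed the adjusted threshold. Of 38 listed genes 32 were measured, and 28 of them had an unadjusted p under 0.05 with a larger change in susceptible rats. The share over all kept probe sets was 6.35%. None of the 32 had a smaller change at that threshold, and the median difference was 1.52. Called were Stat2 and Usp18. The median change was -0.65 in resistant rats, where 11 fell and 1 rose, and 0.53 in susceptible rats, where 14 rose and none fell. After dosing 19 of the 32 were called higher on SA than on RA arrays and none lower. The count of 28 was 26 to 29 with any 1 array left out, 26 with quantile normalization and 28 with the values as deposited.

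Stat2, the subunit particular to the type I signal, was at 13.98, 14.67, 14.05, 14.36 and 13.46 on the R arrays, 13.87, 13.85, 14.1, 13.77 and 13.78 on the RA arrays, 14.38, 14.1, 13.7, 13.49 and 13.91 on the S arrays and 15.65, 14.98, 15.67, 14.82 and 14.96 on the SA arrays. SA arrays lay above all others, while the RA arrays lay within the range of the R arrays. Its difference was 1.53 (SE 0.29, adjusted p = 0.0358), and its other probe set gave 1.35 (adjusted p = 0.0802). Usp18, a protease that removes ISG15 and damps the interferon receptor, was at 13.43, 15.34, 14.31, 14.54 and 12.73 on the R arrays, 12.91, 13.05, 13.48, 12.74 and 12.89 on the RA arrays, 14.92, 14.04, 12.91, 12.71 and 14.11 on the S arrays and 15.96, 15.39, 16.46, 14.84 and 15.47 on the SA arrays. Predose arrays of both sub-groups spread widely, R replicate 5 and S replicates 3 and 4 among the lowest, whereas the RA arrays were all at or below 13.48. The difference was 2.94 (SE 0.6, adjusted p = 0.0499), with a rise of 1.88 in susceptible rats and a resistant change of -1.05 that did not pass (adjusted p = 0.103).

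Helz2, a helicase induced by interferon, and Uba7, the enzyme that activates ISG15, were not on the list and were called too. Helz2 signals were 13.72, 14.5, 14.1, 14.36 and 13.69 on the R arrays, 13.45, 13.35, 13.37, 13.48 and 13.46 on the RA arrays, 14.25, 13.71, 13.54, 13.31 and 13.83 on the S arrays and 14.74, 14.38, 14.81, 14.3 and 14.33 on the SA arrays. The 5 RA arrays were close together, at 13.35 to 13.48, and below all R and SA arrays. It fell in resistant rats by 0.66 (adjusted p = 0.011), rose by 0.78 in susceptible rats (adjusted p = 0.00261), and differed by 1.44 (SE 0.24, adjusted p = 0.0224). Uba7 also fell in resistant rats and rose in susceptible rats, with changes of -0.53 and 0.61 and a difference of 1.13 (adjusted p = 0.0304). Its brighter second probe set gave 0.65 (adjusted p = 0.29).

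The next genes of the list by p were not called. Parp14, an ADP-ribosyltransferase, had a difference of 1.32 (adjusted p = 0.0517), and Irf9, the DNA-binding partner of STAT2, of 1.17 (adjusted p = 0.0819). Irf9 was among the genes that fell in resistant rats (-0.59) and rose in susceptible rats (0.58) with both changes called. Isg15, the ubiquitin-like modifier, and Ifit2, an RNA-binding antiviral protein, were chosen after their values were seen. Isg15 was at 17.09, 18.07, 17.68, 17.47 and 15.76 on the R arrays, 15.88, 15.94, 16.32, 15.56 and 15.72 on the RA arrays, 17.54, 17.41, 15.67, 15.37 and 17.99 on the S arrays and 18.48, 18, 18.33, 17.59 and 18.09 on the SA arrays. RA arrays reached at most 16.32 and SA arrays at least 17.59, while predose arrays covered nearly the whole span; it fell by 1.33 in resistant rats (adjusted p = 0.0408) and rose by 1.3 in susceptible rats (adjusted p = 0.0392). Ifit2 had a difference of 2.47 (adjusted p = 0.0857), and its second probe set one of 3.08 (adjusted p = 0.0689). Ifit1, the only member with an estimate below 0, had a difference of -0.18. Mx2, an antiviral GTPase, fell by 1.96 in resistant rats with a susceptible change of 0.49 that did not pass, whereas Ifih1, a sensor of double-stranded RNA, rose by 1.24 in susceptible rats with a resistant change of -0.29 that did not pass.

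The mean of the 32 genes per array was 14.5, 15.51, 14.97, 15.05 and 13.85 on R, 13.99, 13.96, 14.32, 13.84 and 14.0 on RA, 15.19, 14.81, 13.97, 13.83 and 15.12 on S and 15.45, 15.16, 15.9, 14.78 and 15.24 on SA arrays. The predose arrays spread widely in either sub-group, with R replicate 5 and S replicates 3 and 4 at the level of the RA arrays. The RA arrays were close together at the low end of that range. The SA arrays were above all RA arrays and overlapped the upper predose arrays.

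**Figure D2:**
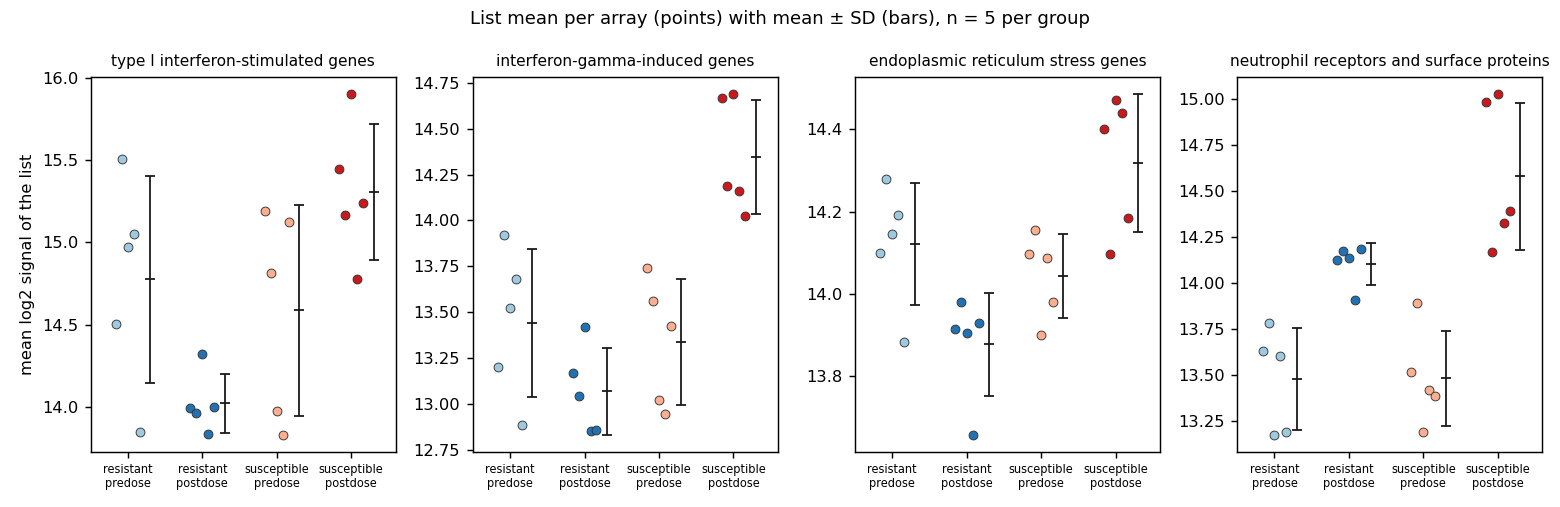
Mean log2 signal over the measured genes of 4 lists (vertical axis, each panel on its own scale) on each array of the 4 groups (horizontal axis); points are arrays and bars the mean ± SD of 5. SA arrays lie above all other arrays for the interferon-gamma list, whereas for the type I list they overlap the predose arrays and exceed only the RA arrays throughout.

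Promoter windows existed for 23 of the 32 type I genes, and 14 held the ISRE core (60.9%) and 5 the GAS (21.7%). For 8 interferon-gamma genes with a window, the numbers were 5 and 4. Among genes of kept probe sets 3.4% of 7480 windows held the ISRE core and 6.66% the GAS, and the 18 windows of the endoplasmic reticulum list held 1 and 0. The lists were composed of known interferon targets, so these shares describe the lists and not the arrays.

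Genes of antigen processing for MHC class I had larger changes in susceptible rats at the unadjusted threshold, and none was called. Of 13 genes 9 had an unadjusted p under 0.05 with a larger change in susceptible rats, against 6.35% of all kept probe sets. None had a smaller change at that threshold, and the median difference was 0.48. In susceptible rats 9 of the 13 rose, and in resistant rats 1 did. The largest differences were those of Tapbp (1.14, adjusted p = 0.101), which encodes tapasin, of Nlrc5 (1.03, adjusted p = 0.227), the activator of MHC class I genes, and of Psme2 (0.98, adjusted p = 0.121), a proteasome activator subunit. The inducible proteasome subunits Psmb8, Psmb9 and Psmb10 had differences of 0.53, 0.55 and 0.47. Among 33 constitutive proteasome subunits 1 had an unadjusted p under 0.05 and the median was 0.12. None of 8 MHC class II genes did, and their median was 0.00, with -0.15 under quantile normalization. The count of 9 was 6 without R replicate 2 and 6 with quantile normalization.

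Tlr4, Ccrl2 and Anxa3 were called too. None of the 8 neutrophil receptors, 6 granule genes and 13 monocyte genes on the lists was. Of all kept probe sets only 0.151% were called larger and 0.0197% smaller, so lists of this size would rarely hold a called gene. Tlr4, the receptor of bacterial lipopolysaccharide that also answers to products of injured tissue, was at 11.14, 12.42, 11.84, 11.75 and 11.41 on the R arrays, 11.97, 11.71, 11.62, 11.22 and 11.69 on the RA arrays, 12.27, 11.86, 11.09, 10.98 and 11.47 on the S arrays and 13.59, 13.06, 14.48, 13.26 and 13.22 on the SA arrays. The lowest SA array was above the highest of the other 15, and SA replicate 3 was the highest. Tlr4 rose by 1.99 in susceptible rats (adjusted p = 3.47e-05), its resistant change was -0.07, and the difference was 2.07 (SE 0.39, adjusted p = 0.0304).

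Ccrl2, a receptor that binds chemerin without signalling, was at 13.77, 14.54, 14.28, 14.12 and 13.95 on the R arrays, 13.11, 12.97, 13.42, 13 and 13.62 on the RA arrays, 14.11, 14.54, 13.51, 13.83 and 14.04 on the S arrays and 14.87, 14.36, 15.09, 14.41 and 14.67 on the SA arrays. All RA arrays were below all R and S arrays except S replicate 3, and among predose arrays R replicate 2 and S replicate 2 overlapped the SA arrays. It fell by 0.91 in resistant rats (adjusted p = 0.00221) and rose by 0.67 in susceptible rats (adjusted p = 0.0158), with a difference of 1.58 (SE 0.27, adjusted p = 0.0224). Anxa3, an annexin abundant in neutrophils, was at 11.14, 12.28, 11.25, 11.78 and 11.02 on the R arrays, 10.86, 11.09, 10.93, 11.1 and 11.08 on the RA arrays, 11.51, 11.26, 10.7, 11.22 and 11.4 on the S arrays and 13.07, 12.47, 13.77, 12.21 and 12.17 on the SA arrays. SA replicates 1 and 3 were the highest and R replicate 2 overlapped the lower SA arrays. The difference was 2.0 (SE 0.37, adjusted p = 0.0304), but a brighter second probe set gave 0.50 (adjusted p = 0.531), so the probe sets of this gene disagree in size.

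Of 18 measured genes of NF-kappaB signalling and inflammatory cytokines, 8 had an unadjusted p under 0.05 with a larger change in susceptible rats. The share over all kept probe sets was 6.35%. None of the 18 had a smaller change at that threshold, and none was called. The median difference was 0.48. Ccl2, a chemokine that draws monocytes, had the largest, 3.48 (SE 0.82, adjusted p = 0.0857). Its signals were 10.4, 14.49, 13.49, 14.16 and 12.03 on the R arrays, 10.25, 9.68, 9.92, 9.5 and 10.66 on the RA arrays, 13.71, 13.5, 11.28, 11.92 and 12.64 on the S arrays and 12.9, 12.59, 13.2, 13.79 and 13.4 on the SA arrays. The RA arrays were uniformly low, between 9.5 and 10.66, as was R replicate 1 at 10.4, whereas the SA arrays, at 12.59 to 13.79, overlapped the S arrays. It fell by 2.91 in resistant rats (adjusted p = 0.00152), and the susceptible change of 0.56 did not pass.

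Ptgs2, the inducible cyclooxygenase, and Cxcl2, a chemokine for neutrophils, had differences of 2.14 and 2.19 (adjusted p = 0.0857 for each) and rose in susceptible rats by 1.49 and 1.46. Their resistant changes of -0.65 and -0.72 did not pass. Il1r2, the decoy receptor of interleukin-1, rose in both sub-groups, by 0.87 in resistant and 2.58 in susceptible rats, and differed by 1.71 (adjusted p = 0.0689). Il1b, interleukin-1 beta, also rose in both, by 0.98 and 1.69, and its difference was 0.71 (adjusted p = 0.441). Tnfaip3 (0.19) and Nfkb1 (-0.01), which restrain and carry NF-kappaB signals, had small differences that did not pass.

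**Figure D3:**
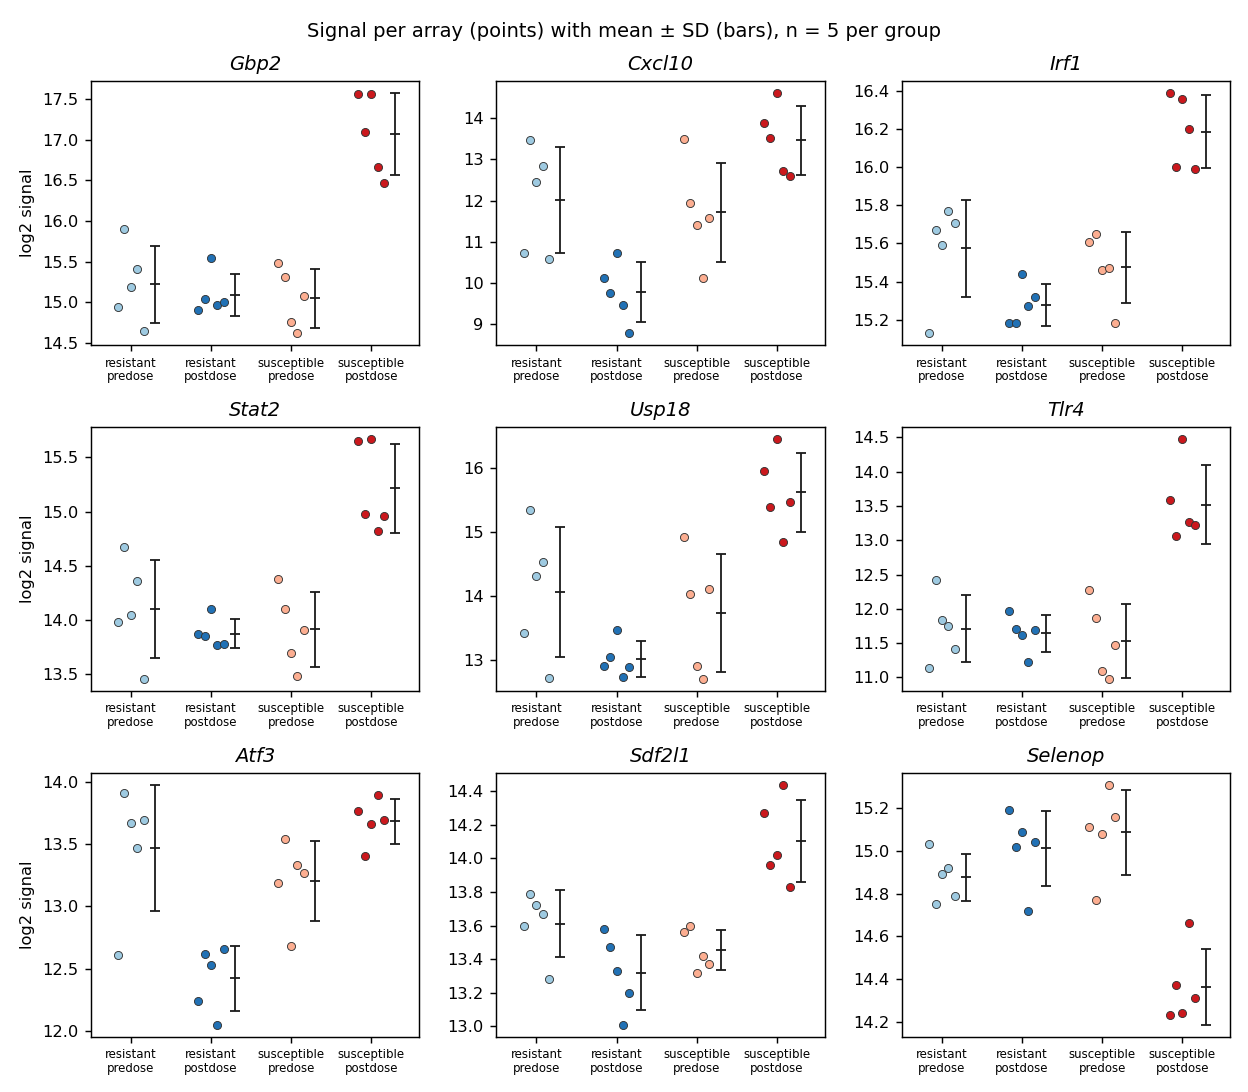
Log2 signal (vertical axis, each panel on its own scale) of 9 called genes on each array of the 4 groups (horizontal axis); points are arrays and bars the mean ± SD of 5. For 8 of the genes SA arrays lie above RA arrays without overlap, and for Selenop SA arrays, at 14.23 to 14.66, lie below all others.

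The endoplasmic reticulum is where secreted and membrane proteins fold, and genes of its stress response formed a further list. Of 22 measured genes 14 had an unadjusted p under 0.05 with a larger change in susceptible rats, against 6.35% of all kept probe sets. None had a smaller change at that threshold, 21 estimates were above 0 and the median difference was 0.56. In susceptible rats 8 rose and 1 fell, and in resistant rats 5 fell and none rose. The count of 14 was 10 to 17 with any 1 array left out, with 10 without RA replicate 4, 11 with quantile normalization and 13 with the values as deposited.

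Atf3, a transcription factor of the stress response, was called. It stood at 12.61, 13.91, 13.67, 13.47 and 13.69 on the R arrays, 12.24, 12.62, 12.53, 12.05 and 12.66 on the RA arrays, 13.19, 13.54, 12.68, 13.33 and 13.27 on the S arrays and 13.76, 13.4, 13.66, 13.89 and 13.69 on the SA arrays. The RA arrays, at most 12.66, lay below all others except R replicate 1, and the SA arrays overlapped the predose arrays. It fell by 1.05 in resistant rats (adjusted p = 0.000956), while the susceptible change of 0.48 did not pass (adjusted p = 0.0995), and the difference was 1.53 (SE 0.28, adjusted p = 0.0304).

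Sdf2l1, a subunit of the folding machinery around the chaperone BiP, was at 13.6, 13.79, 13.72, 13.67 and 13.28 on the R arrays, 13.58, 13.47, 13.33, 13.01 and 13.2 on the RA arrays, 13.56, 13.6, 13.32, 13.42 and 13.37 on the S arrays and 14.27, 13.96, 14.02, 14.44 and 13.83 on the SA arrays. All SA arrays were above all others. It rose by 0.65 in susceptible rats (adjusted p = 0.00133) and differed by 0.94 (SE 0.18, adjusted p = 0.0385). Ssr3, a subunit of the complex that assists protein translocation, was not on the list and had a difference of 1.01 (adjusted p = 0.044) on 1 probe set. On 2 others, both brighter, it was 0.74 and 0.52 (adjusted p = 0.101 and 0.327). Hspa5, which encodes BiP itself, fell by 0.45 in resistant rats (adjusted p = 0.00671) and differed by 0.57 (adjusted p = 0.148). Pdia6, a disulfide isomerase, rose by 0.55 in susceptible rats and differed by 0.7 (adjusted p = 0.196). Herpud1 (-0.09) and Asns (0.09), other targets of this response, had differences near 0 that did not pass. Of 15 heat shock chaperones of the cytosol and mitochondria 1 had an unadjusted p under 0.05, Hspa1a, with a difference of 1.48 (adjusted p = 0.441). Over all kept probe sets 6.35% were larger at that threshold.

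Sgk1, Enpp3 and C1h19orf12 were also called as larger. The first of these, a kinase induced by glucocorticoids and cell stress, was at 14.91, 15.89, 15.19, 15.69 and 14.88 on the R arrays, 14.66, 14.68, 14.81, 14.34 and 15.01 on the RA arrays, 16.02, 15.21, 15.01, 15.08 and 14.62 on the S arrays and 16.53, 16.03, 16.84, 15.79 and 16.3 on the SA arrays. RA arrays were all at or below 15.01, and the SA arrays overlapped S replicate 1 and R replicate 2. It rose by 1.11 in susceptible rats (adjusted p = 0.00267) and differed by 1.72 (SE 0.34, adjusted p = 0.0427). Of 14 measured glucocorticoid-induced genes, Sgk1 and Il1r2 were larger and Ddit4, an inhibitor of mTOR, was smaller (-0.9, adjusted p = 0.39) at an unadjusted p under 0.05, and the median was 0.03, with -0.08 under quantile normalization and -0.02 as deposited.

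Enpp3, a surface nucleotide-cleaving enzyme known from basophils and mast cells, rose by 1.14 in susceptible rats (adjusted p = 6.89e-06), and every SA array, at 11.97 to 12.31, was above the highest of the others at 11.55. Its difference was 0.92 (SE 0.19, adjusted p = 0.0499), a call that remained without each of 2 of the 20 arrays. C1h19orf12, the rat form of a mitochondrial membrane protein, differed by 1.47 (adjusted p = 0.036), and its second probe set by 0.53 (adjusted p = 0.507). The 4 called probe sets with no single gene symbol were 1375796_at (2.0), 1378419_at (2.24), 1382603_at (1.24) and 1384483_at (1.2). Helz2, Uba7, Ssr3, Enpp3, C1h19orf12 and 3 of these probe sets lay outside the rule for named genes and were named after their values were seen.

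In the other direction, Selenop and Deptor fell in susceptible rats. Selenop, which encodes the selenium carrier of plasma that also marks macrophages, was at 15.03, 14.75, 14.89, 14.92 and 14.79 on the R arrays, 15.19, 15.02, 15.09, 14.72 and 15.04 on the RA arrays, 15.11, 14.77, 15.08, 15.31 and 15.16 on the S arrays and 14.23, 14.37, 14.24, 14.66 and 14.31 on the SA arrays. All SA arrays were below all others, which overlapped. It fell by 0.72 in susceptible rats (adjusted p = 0.000152), its resistant change was 0.14, and the difference was -0.86 (SE 0.16, adjusted p = 0.0304). Deptor, an inhibitor of the growth kinase mTOR, was at 11.07, 10.63, 11.1, 10.87 and 10.4 on the R arrays, 11.11, 11.2, 11.64, 10.89 and 11.3 on the RA arrays, 10.95, 11.32, 11.37, 11.38 and 11.17 on the S arrays and 10.28, 10.74, 10.35, 10.91 and 10.44 on the SA arrays. SA replicate 4 overlapped RA replicate 4, and otherwise SA arrays were below RA arrays. It fell by 0.70 in susceptible rats (adjusted p = 0.00347) and differed by -1.11 (SE 0.22, adjusted p = 0.044).

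The third, 1377650_at, has no gene symbol here. It was at 11.88, 11.47, 11.83, 12.06 and 11.85 on the R arrays, 12.74, 13.24, 13.04, 13.01 and 12.89 on the RA arrays, 11.87, 11.93, 12.16, 12 and 11.76 on the S arrays and 12.21, 12.21, 12.28, 12.22 and 12.36 on the SA arrays. The RA arrays were above all others, and it rose by 1.16 in resistant rats (adjusted p = 1.13e-06), while the susceptible change of 0.31 did not pass. The difference was -0.85 (SE 0.16, adjusted p = 0.0304).

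Named genes of the smallest p that were not called as smaller included Flt3, a receptor of progenitors and dendritic cells, which rose by 0.75 in resistant and fell by 0.72 in susceptible rats, the 1 probe set with both changes called in that order. Its difference was -1.48 (adjusted p = 0.0689). Slc8a1, a sodium-calcium exchanger, fell by 1.11 in susceptible rats and differed by -1.23 (adjusted p = 0.0689). Osbpl3, a lipid transfer protein, rose by 0.8 in resistant rats and differed by -0.92 (adjusted p = 0.0857), while its brighter second probe set gave -0.35 (adjusted p = 0.517). Hbe2, an embryonic globin, rose by 1.63 in resistant rats and differed by -2.29 (adjusted p = 0.0933); its R arrays ran from 8.07 to 10.43 against 9.97 to 11.64 on S arrays, and the RA and SA ranges overlapped, from 10.51 to 11.49 and from 9.56 to 11.04. The others named by the smallest p had adjusted p from 0.0758 to 0.123 and were Fmnl2 (-0.75), Dhrs3 (-0.75), Kiaa1958 (-0.79), Pikfyve (-0.59), Lix1l (-0.99) and Rpl28 (-0.58).

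Among 20 immediate-early genes, transcribed within minutes of a stimulus, 7 had an unadjusted p under 0.05 as larger in susceptible rats. None was smaller at that threshold, and the median was 0.36. The share of larger differences over all kept probe sets was 6.35%. Egr1 and Fosb, transcription factors of this class, fell in resistant rats (-1.96 and -2.53) with susceptible changes of -0.46 and -0.64 that did not pass, and differed by 1.5 (adjusted p = 0.27) and 1.9 (adjusted p = 0.29). Ier3, a survival factor, rose instead by 1.44 in susceptible rats and differed by 1.5 (adjusted p = 0.21). The count of 7 was 4 without RA replicate 4.

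The next lists also stand beside shares of 6.35% larger and 3.02% smaller over all kept probe sets. Of 16 genes of the oxidative stress factor NRF2 and of glutathione, which detoxifies the reactive product of APAP, 5 had an unadjusted p under 0.05 as larger. None was smaller, and the median was 0.24. Slc7a11, the cystine importer, rose by 0.73 in resistant and 1.49 in susceptible rats and differed by 0.76 (adjusted p = 0.21). Srxn1, sulfiredoxin, fell by 0.81 in resistant rats and differed by 0.94 (adjusted p = 0.203). Of 16 apoptosis and p53 genes 5 were larger and 1 smaller at an unadjusted p under 0.05, among them Fas, a death receptor (0.95, adjusted p = 0.25), and Casp8, its protease (0.6, adjusted p = 0.301). Of 7 measured tissue repair genes 2 were larger, Vegfa, an angiogenic growth factor (0.91, adjusted p = 0.177, and 0.36 with adjusted p = 0.891 on a second probe set), and Plaur, the urokinase receptor (1.03, adjusted p = 0.361), and both had fallen in resistant rats, by 0.84 and 1.54. The counts of 5 were 4 and 3 without RA replicate 4.

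Cell type markers were read beside these groups, since in blood fewer cells of a type and less RNA per cell cannot be told apart. Over all kept probe sets 6.35% were larger and 3.02% smaller at an unadjusted p under 0.05. Of 8 measured neutrophil receptors 6 rose and 2, Fcgr3a, a receptor of antibodies (-1.09 and -1.45), and Ceacam1, an adhesion molecule (-0.75 and -0.95), fell in both sub-groups. Of the 8, 2 had a larger rise in susceptible rats at an unadjusted p under 0.05, Il1r2 and Cxcr2, a chemokine receptor (changes 1.48 and 2.21, difference 0.74, adjusted p = 0.43). The mean of the list was 13.18 to 13.79 on R, 13.91 to 14.19 on RA, 13.2 to 13.89 on S arrays and, in susceptible rats after the dose, 14.17 to 15.03, with RA and SA arrays above all predose arrays and overlapping each other. It was highest on SA replicates 1 and 3, as were Gbp2, Irgm2, Stat2, Anxa3 and Il1r2, of which Il1r2 is itself on this list. Atf3, Sdf2l1 and Ccl2 were instead highest on SA replicate 4, at 13.89, 14.44 and 13.79. All of these genes are examples and not a count. The median difference was 0.42 for the 8 neutrophil receptors, and 0.21 for 6 neutrophil granule genes, none of which had an unadjusted p under 0.05. What neutrophil numbers added to the differences above was not tested.

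Of 13 monocyte and macrophage genes 3 were smaller in susceptible rats at an unadjusted p under 0.05 and 1 larger. The median of their differences was 0.24, with 7 of 13 above 0, although the median change was lower in susceptible (-0.32) than in resistant rats (-0.10). The 3 were Clec4a3, a lectin receptor (-0.96, adjusted p = 0.402), Cx3cr1, a receptor of patrolling monocytes (-0.79, adjusted p = 0.314), and Adgre1, a surface receptor of macrophages (-0.96, adjusted p = 0.408), and of these Cx3cr1 and Adgre1 fell in susceptible rats, by 0.78 and 1.75. The larger one was Vcan, a matrix proteoglycan (0.97). Of 15 natural killer and cytotoxic genes, 12 had a called rise among resistant rats and 13 among susceptible rats, and the median difference was -0.16. Over all kept probe sets such rises were 7.17% and 10.5%. At an unadjusted p under 0.05, 2 of the 15 were larger and 1 smaller, and the 1 became 4 with quantile normalization, 2 with the values as deposited and 0 to 5 with 1 array left out. Gzmb, a granule protease, had a larger rise in susceptible rats (0.93, adjusted p = 0.115) and Eomes, a transcription factor of these cells, a smaller one (-0.76, adjusted p = 0.414). Neither was called. The second probe set of Gzmb gave 0.62 (adjusted p = 0.336) and that of Eomes 0.03.

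Few lymphocyte, platelet and red cell markers differed, beside 6.35% larger and 3.02% smaller of all kept probe sets at an unadjusted p under 0.05. None of 20 T cell or 11 B cell genes had an unadjusted p under 0.05, with medians of -0.07 and -0.24, but with quantile normalization 4 and 2 were smaller in susceptible rats, and 1 and 1 with the values as deposited. Of 13 platelet genes 1 did, with all 13 estimates above 0 and a median of 0.26, and of 16 erythroid genes 1, with a median of 0.05 that was -0.05 under quantile normalization. Only 2 of 20 liver genes on the array were above the signal rule, Fetub and Hp, haptoglobin, an acute-phase protein that neutrophils also hold. Hp rose by 1.0 in susceptible rats and differed by 0.79 (adjusted p = 0.411), and Fetub, the liver glycoprotein fetuin-B, rose by 3.69 in resistant and 3.71 in susceptible rats and differed by 0.02.

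**Figure D4:**
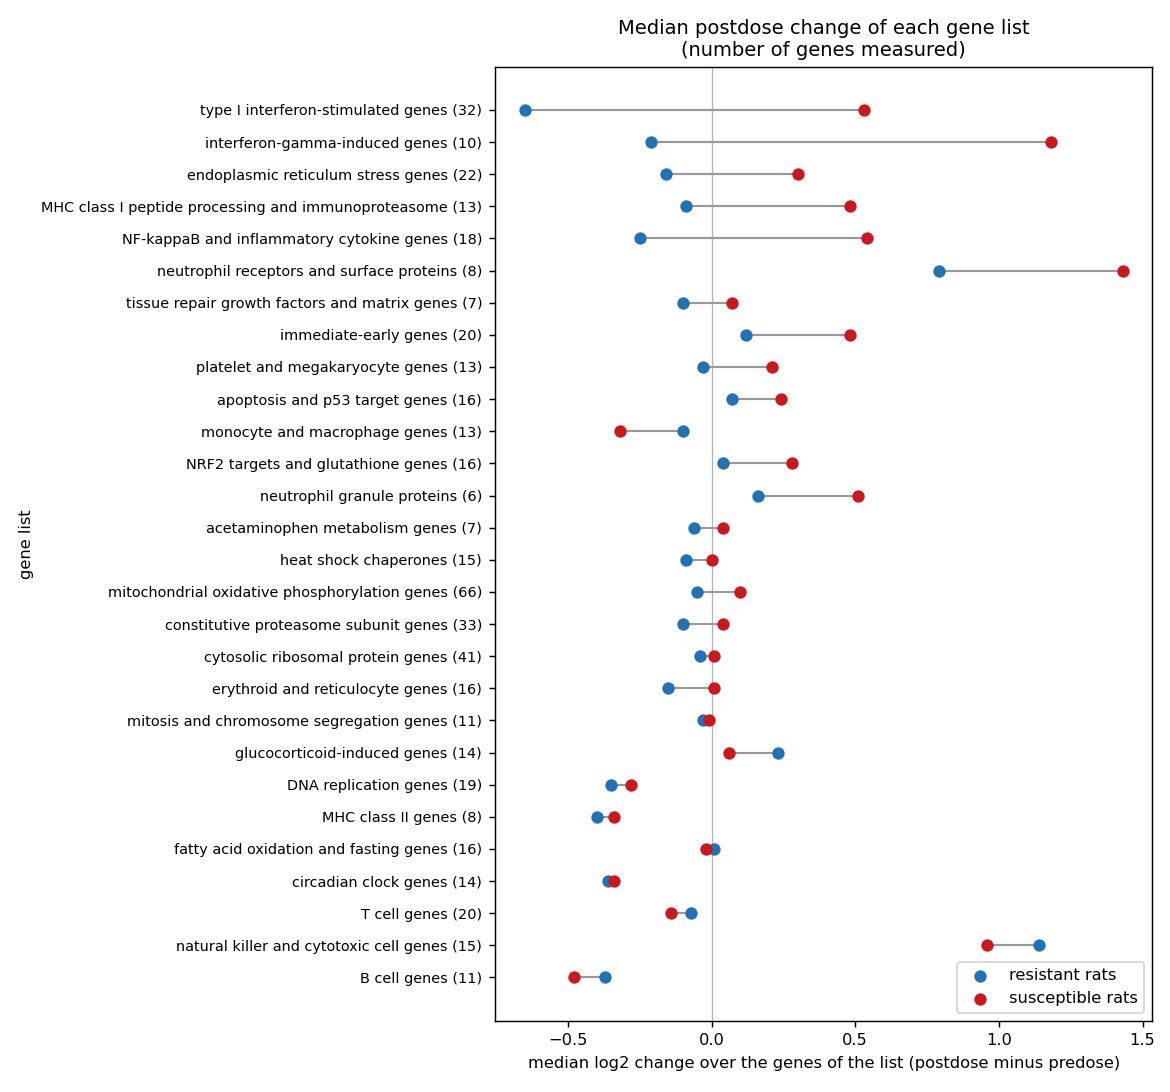
Median log2 change from predose to postdose (horizontal axis) over the measured genes of each list (vertical axis, with the number of genes), in resistant (blue) and susceptible (red) rats, for lists with at least 3 measured genes. Lists are ordered by the median difference, from 1.52 for type I interferon-stimulated genes at the top to -0.24 for B cell genes at the bottom, which need not equal the gap between the plotted medians.

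Lists of basic cell functions had medians within the quartiles of all kept probe sets, -0.12 and 0.19. Medians were 0.06 for 41 cytosolic ribosomal protein genes, 0.14 for 66 genes of mitochondrial oxidative phosphorylation, 0.00 for 19 DNA replication genes, 0.04 for 11 mitosis genes, -0.01 for 16 genes of fatty acid oxidation and fasting, -0.04 for 14 circadian clock genes and 0.16 for 7 genes of APAP metabolism. In these 7 lists together, 1 gene was larger and 1 smaller at an unadjusted p under 0.05. Leaving out R replicate 5 raised the count of larger differences to 11 for oxidative phosphorylation, 8 for the constitutive proteasome, 4 for neutrophil receptors and 3 for DNA replication, and leaving out RA replicate 1 that of platelet genes to 5. Over all 15257 kept probe sets this count also rose, from 969 to 1217 without R replicate 5 and to 1092 without RA replicate 1. With quantile normalization the medians of the ribosomal and DNA replication lists were -0.07 and -0.03.

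Of 10 candidate genes that the study chose on these arrays, 9 were matched by symbol, all but Rpgrip1, and 2 had a probe set above the signal rule. The study also rests its case on PCR of predose blood from an independent set of rats and of liver, which these arrays do not hold. For both genes above the rule, the probe set the study listed lay below it, and the values here are from another probe set of the gene. Incenp, a chromosomal passenger protein, differed by -0.16 (adjusted p = 0.92). Sbf1, a phosphatase-like protein, differed by 0.005 (adjusted p = 0.997), an estimate of either sign under other settings, with -0.006 under quantile normalization and -0.044 for values as deposited.

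The log2 signal of the actin control at the 3' end exceeded that at the 5' end by 0.804 on R, 0.764 on RA, 0.874 on S and 0.789 on SA arrays (means, n = 5), and the difference in change was -0.044 (exact 2-sided permutation test, p = 0.541). The scaled signal of the bacterial trp controls, a measure of background, was 30.6 to 66.5 on R arrays and 18.1 to 211.2 on RA arrays, and in susceptible rats 12.9 to 92.2 before and 69.0 to 161.0 after the dose, below the signal rule of 1000 throughout. Its part in the differences was not tested.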

How the data were processed

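The authors deposited 1 linear intensity per probe set and array, with array medians from 187.4 to 223.0; the software behind these intensity values is not given in the sources used here, and the methods of the study normalize each array to a median of 1000. From the 31099 probe sets, 57 control probe sets were left out, array medians were brought to 1000, values were converted to log2, and probe sets with a mean of at least log2 of 1000 were kept. Gene symbols came from the platform annotation; 11791 of the 11822 single symbols are in the RefSeq table.

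All 20 arrays entered 1 fit of group means without a block (lmFit and eBayes of limma 3.58.1, R 4.3.3), with Benjamini-Hochberg adjustment over all 15257 probe sets. Each gene of a list was read from its brightest kept probe set, and lists received counts and medians but no test. Named genes were, in each direction, the 12 with the largest called difference, filled up by smallest p, and of each list the 4 of smallest unadjusted p under 0.05 and the highest signal, besides kept candidate genes and 1 unnamed probe set; those named otherwise are marked or serve as contrast within a list. The members, the gene lists and this rule were chosen with earlier results of these data known. Alternatives were quantile normalization, deposited values, 4 other filters or probe set choices, a replicate block, a trended robust prior, the methods' t-test and leaving out each array. The actin ratio was compared with an exact permutation test over 63504 arrangements. Plots used Python 3.11.15 and matplotlib 3.10.9. For arrays, 5 per group limits the precision.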

Additional observations from a re-analysis of the deposited data

Results flagged for a closer look

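A single array lay far from the other 4 of its group, with a gap above Dixon's limit of 0.71 of the range, in 8 of 240 groups of values, which are those of the 58 named genes, of the actin ratio and of the correlation between arrays; chance alone would give about 12. The mean correlation of resistant predose replicate 5 with its group was 0.9713 against 0.9794 to 0.9815. On resistant postdose arrays, Gbp2 was 15.55 on replicate 3 against 14.9 to 15.04 on the others, Plaur 11.37 on replicate 4 against 11.94 to 12.18, and Hp 15.3 on replicate 2 against 14.62 to 14.79. On resistant predose arrays, Irf1 was 15.13 on replicate 1 against 15.59 to 15.77, and replicate 5 was the lowest for Ssr3 (12.25 against 12.56 to 12.67), Pdia6 (14.37 against 14.85 to 15.03) and Gzmb (14.36 against 14.89 to 15.01).

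The postdose change differed between the sub-groups, by the limma test of the difference itself at an adjusted p under 0.05, for 22 of the named genes and probe sets. The log2 differences, susceptible minus resistant, were 2.16 for Gbp2, 1.77 for Ubd, 1.01 for Irf1, 1.89 for Irgm, 1.95 for Irgm2, 4.01 for Cxcl10, 1.53 for Stat2, 2.94 for Usp18, 1.44 for Helz2 and 1.13 for Uba7. They were 2.07 for Tlr4, 1.58 for Ccrl2, 2.0 for Anxa3, 1.53 for Atf3, 0.94 for Sdf2l1, 1.01 for Ssr3, 1.72 for Sgk1, 0.92 for Enpp3 and 1.47 for C1h19orf12. Other kept probe sets of Stat2, Uba7, Anxa3, Ssr3 and C1h19orf12 were not called. Below 0 were Selenop with -0.86, Deptor with -1.11 and 1377650_at with -0.85.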

How the results depend on the processing

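Of 26 probe sets called for the difference in change, 16 were called with the values as deposited (16 shared with the 26). With no filter on signal, or with only probe sets under 100 on all arrays left out, 0 were called. With the filter at 2000 the number was 45 (25 shared), and with the replicate block 12 (9 shared). The methods' t-test, extended to the contrast of 4 groups, gave 0 after adjustment. At the methods' own threshold, an unadjusted p under 0.05 and a fold of at least 2, it gave 181 (22 shared). The study applied that threshold to 2 groups and not to a difference of changes. Leaving out 1 array gave 0 to 119. The 1430 at an unadjusted p under 0.05 became 853 with 1 probe set per gene, where fewer were tested, and 1106 to 1750 with 1 array left out. The 2351 called resistant changes became 1558 with no filter, 1266 with 1 probe set per gene, 1269 with the methods' t-test after adjustment and 364 at its own threshold, and 1741 to 2572 with 1 array left out. The 2854 susceptible changes became 1719 with 1 probe set per gene, 1198 and 429 with the t-test, and 2130 to 3240 with 1 array left out. The difference in the actin ratio, -0.044, was -0.075 to -0.006 (exact p from 0.284 to 0.927). Of 1726 gene values under an alternative 1298 kept their direction and side of the threshold, 361 lost the call, 55 gained one and 12 turned sign. Only the 22 called could lose a call, so the 361 losses are not to be read against all 1726 values. Among the 22, Gbp2 was called in 24 of 30 alternatives, the most, and Enpp3 in 5 of 30, the fewest. All 12 values that turned sign were of Sbf1, which was -0.006 with quantile normalization, -0.044 as deposited and -0.06 to 0.084 with 1 array left out. The cause was not tested. Of 900 list medians 897 moved by less than 1 SD between arrays, and 46 had the other sign. Most of these alternatives left out 1 array, which moves a group mean by only a fraction of that array's deviation. For them a shift under 1 SD was nearly fixed in advance, so the 897 do not measure how stable the medians are.

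Same-numbered predose and postdose arrays had correlations of their deviations of 0.09 to 0.158 in resistant and -0.164 to 0.196 in susceptible rats. They were over 0.1 in 6 of 10 pairs, and 5 of 10 predose arrays were closest to their own number. These values do not settle whether equal numbers are the same rat. The main fit has no block because the labels do not state it. The 12 called with the block were all larger in susceptible rats, and adjusted p was 0.0531 for Selenop, 0.0531 for Deptor and 0.103 for 1377650_at.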
